A study of Mus musculus with 18 samples.

Results

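The mitochondrial carrier genes of mouse hindlimb muscle were followed across age. They were taken as every gene of the muscle RNA-seq table whose symbol was Slc25a followed by a number, which gave 47 of the 23420 genes. The rule used the symbol alone and no measured value. Family members with other symbols, such as the uncoupling protein gene Ucp3, were therefore not among the 47. Of the 47 genes, 39 had a mean normalized count of at least 10 over the 9 libraries and were tested between ages.

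The SLC25 family is the main set of transport proteins of the inner mitochondrial membrane. Its members exchange or import the nucleotides, phosphate, carboxylates, amino acids, acylcarnitines, cofactors and metal ions that the matrix cannot obtain otherwise, and a few sit in peroxisomes or in the outer membrane. In skeletal muscle the family is best known for the ADP/ATP carrier, which delivers the ATP made in mitochondria to the contractile apparatus, for the phosphate carrier that feeds ATP synthase, and for the carriers of the malate-aspartate shuttle, which brings the reducing power of glycolysis into the matrix.

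The groups were female C57BL/6J mice aged 2 months (2 m), 20 months (20 m) and 28 months (28 m), with 3 mice per age and 1 RNA-seq library of poly-A RNA per mouse. The same mice gave muscle DNA for methyl-CpG-binding domain sequencing (MBD-seq), as did spleen T cells, but there the DNA of the 3 mice of an age was pooled, so MBD-seq had 1 pool per age and tissue. The capture was repeated on the muscle pools, which gives a technical repeat and no further mice, and the table holds 1 muscle column per age. The mice received no treatment that the labels name. The tissue was powdered hindlimb muscle, and neither the labels nor the methods say which muscles of the limb it held. Normalized counts are reads per gene divided by 1 size factor per library. The p-values of the main test (limma, below) rest on the spread between libraries of the same age. That spread is pooled over the 3 ages and drawn toward the trend of all genes. It holds differences between libraries as well as between mice.

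The libraries held 20203833 to 71115244 reads on genes. The 3 libraries numbered 3, 1 of each age, stood apart: reads that fell on no single gene made up 37.9 to 41.5% of their total against 44.0 to 47.7% in the others, so results are also given without them. All 8 muscle identity genes were present, the lowest being Mb (myoglobin) with at least 41047 normalized counts in every library. The 7 slow-fibre markers summed to between 12890 and 115123 normalized counts at 2 m, 163266 to 289784 at 20 m and 202374 to 255812 at 28 m, and 7 of 7 rose at both older ages against 2 m by the test described next, while none passed it between 20 and 28 m. The 6 adipocyte markers summed to between 7234 and 11015 at 2 m, 4851 and 5447 at 20 m and 4704 and 6887 at 28 m. Neutrophil and marrow markers summed to 5356 in 2-m library 1 and to at most 86.1 in any other. The part of these marker differences in the carriers' differences from 2 m was not tested. In bulk tissue, fewer cells of a type and less RNA per cell cannot be told apart.

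Of the 39 carriers tested, 10 were called in at least 1 comparison of ages. The 3 genes with the largest changes called were Slc25a1, which was lower at 20 and 28 m than at 2 m, Slc25a25, which was lower at 28 m than at 2 and 20 m, and the scarce Slc25a13, which was higher at 20 and 28 m than at 2 m. Expression was compared with limma across all 13178 genes with a mean of at least 10, on log2 of the normalized count plus 1, and a gene was called at a Benjamini-Hochberg adjusted p under 0.05. Between 2 and 20 m, 3 of 39 carriers rose (Slc25a13, Slc25a22 and Slc25a28), against a background of 9.42% of all genes, and 3 fell (Slc25a1, Slc25a10 and Slc25a39), against 7.13% of all genes. Between 2 and 28 m, 2 rose (Slc25a13 and Slc25a36), where 7.53% of all genes did, and 5 fell (among them Slc25a1, Slc25a25, Slc25a39 and Slc25a51), where 6.24% did. Between 20 and 28 m no carrier rose, where 0.212% of all genes did, and Slc25a25 fell, where 0.167% did. As shares of the 39 carriers, 7.69% rose and 7.69% fell at 20 m, and 5.13% rose and 12.8% fell at 28 m against 2 m, and these shares were not tested against those of all genes. For the count of 0, edgeR and DESeq2 on the recovered reads also called none, and 5 carriers, in either direction, had an unadjusted limma p under 0.05 between 20 and 28 m. These 5 are to be read against all genes, since a limma p of 0.0534 (Slc25a20) ranked only 1469 of 13178 there.

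The study's own rule asks for a fold change over 2 with an unadjusted p under 0.05. The study applied it to DESeq2 results, and here it was applied to the limma fit, so the genes passing can differ. By that rule on the limma fit Slc25a13 rose at 20 m, as did 2.27% of all genes, and Slc25a1 fell, as did 2.9%. With DESeq2 on the recovered reads Slc25a10 was also just over 2-fold lower at 20 m (log2 fold change -1.001, DESeq2 adjusted p = 0.00207). At 28 m against 2 m Slc25a13 was again higher, with 2.66% of all genes, while Slc25a1 and Slc25a25 were lower, with 2.48% of all genes. Between 20 and 28 m no carrier was higher by this rule, where 0.926% of genes were, and Slc25a25 was lower, where 0.379% were. At an unadjusted p under 0.05 alone, 14, 14 and 5 of the 39 carriers passed in the 3 comparisons, in the order given. Many other genes passed too: a limma p of 0.0442 (Slc25a35) ranked 3959 of 13178 at 20 m against 2 m. At 28 m against 2 m a limma p of 0.0287 (Slc25a23) ranked 3009. The median log2 fold change of the carriers was -0.11 at 20 m and -0.15 at 28 m against 2 m, where that of all genes was -0.02 and -0.01, and 14 and 13 of the 39 carriers lay above 0. Between 20 and 28 m the median of the carriers was 0.01, and 20 of 39 lay above 0.

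**Figure D1:**
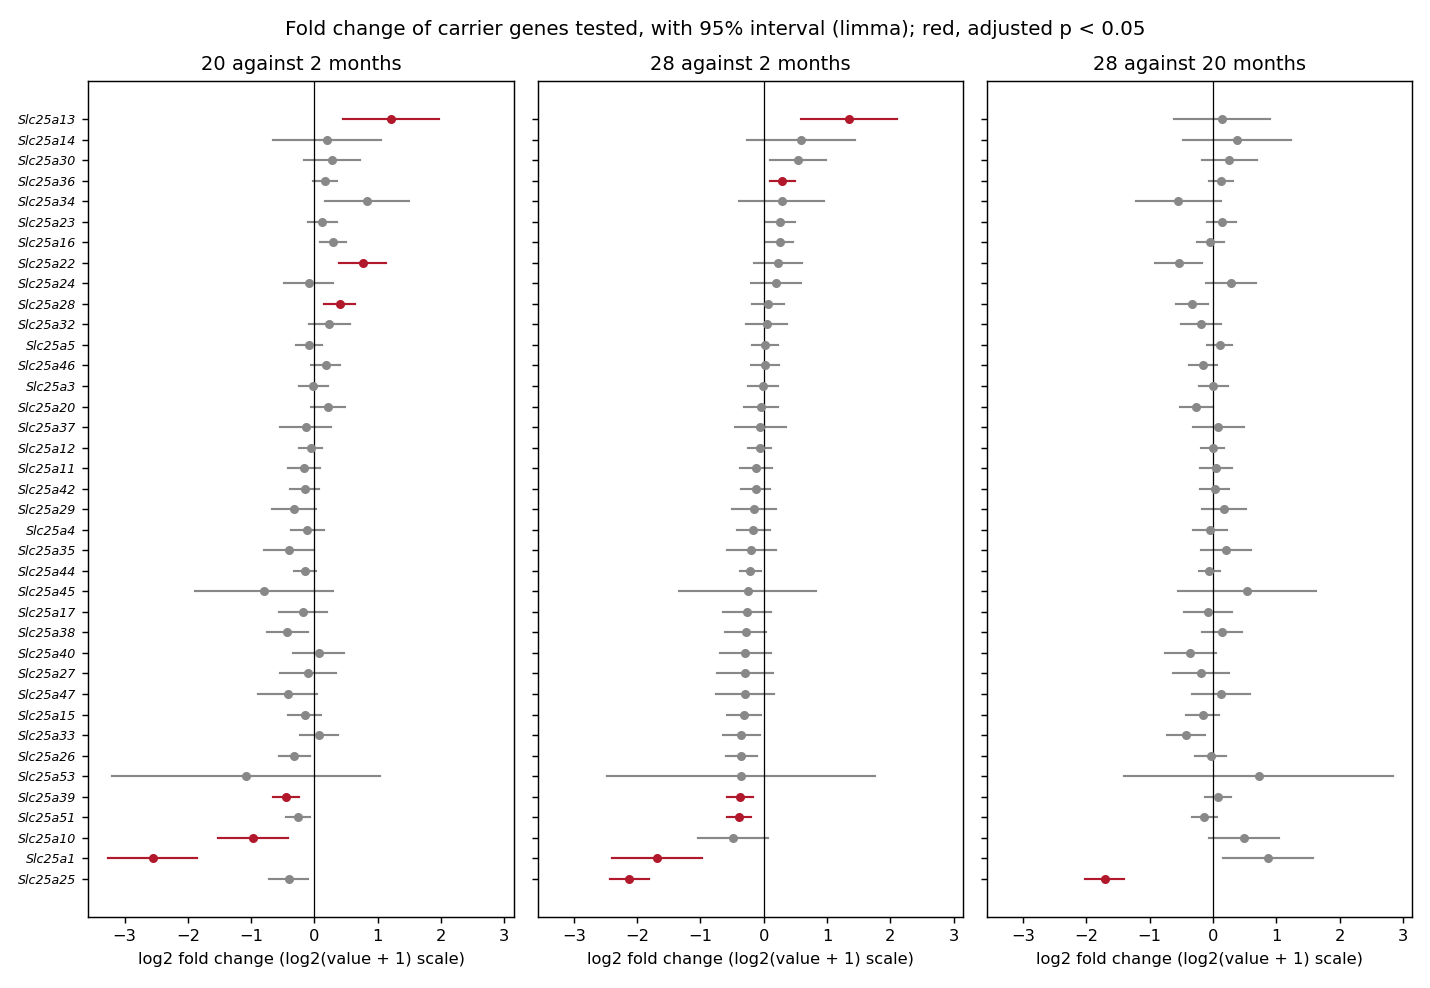
Log2 fold changes of the carrier genes tested and shown (x axis, on the log2(normalized count + 1) scale) for 20 against 2 months, 28 against 2 months and 28 against 20 months, with 95% intervals from limma as lines and adjusted p under 0.05 in red. Slc25a25 stands alone at the low end of the last comparison (-1.71), Slc25a1 at the low end of the first (-2.56), and most other carriers lie close to 0.

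Rescaling the libraries to the same sum left Slc25a1 as the only carrier called at 20 m, Slc25a1 and Slc25a25 at 28 m against 2 m, and Slc25a25 at 28 m against 20 m. Without the 3 libraries numbered 3, no carrier passed as higher in any of the 3 comparisons. Fewer of all genes passed there too, 683 higher and 416 lower at 20 m in place of 1242 and 939. At 28 m against 2 m the counts of all genes were 400 and 312 in place of 992 and 822. At 28 m against 20 m they were 3 and 8 in place of 28 and 22. Slc25a1 was then the only carrier lower at 20 m, Slc25a1, Slc25a25 and Slc25a51 were lower at 28 m against 2 m, and Slc25a25 was lower at 28 m against 20 m. Each pair of groups that did not overlap gave an exact two-sided permutation p of 0.1, the smallest that 3 against 3 libraries allow.

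The carriers of adenine nucleotides and phosphate made up most of the family's RNA. Slc25a4 encodes the ADP/ATP carrier of heart and muscle, which exchanges cytosolic ADP for matrix ATP. It had 108574, 126722 and 102726 normalized counts in the 2-m libraries, 103192, 103848 and 104324 in the 20-m libraries, and 93964, 116646 and 92018 in the 28-m libraries. The 3 ages overlapped, and the log2 fold change at 28 m against 2 m was -0.16 (95% interval -0.43 to 0.10, limma, Benjamini-Hochberg adjusted p = 0.418). Levels of different genes are compared per kb of the longest transcript. On that scale Slc25a4, at 54950.3 normalized counts per kb, held 61.6% of the summed level of the 47 carriers, and its share was 61.9% ± 1.94 (SD, n = 3) at 2 m, 61.3% ± 1.28 at 20 m and 61.3% ± 1.61 at 28 m.

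Slc25a5 encodes the ADP/ATP carrier of growing and most other cells. It stayed between 1007 and 1248 normalized counts in the 9 libraries and was not called in any comparison. Per kb, Slc25a4 exceeded Slc25a5 61.3-fold ± 6.19 (SD, n = 3) at 2 m, 59.98-fold ± 6.29 at 20 m and 54.1-fold ± 8.50 at 28 m, ranges that overlapped. RefSeq lists 1 pseudogene named for Slc25a5, so its reads may be split or left out as not unique, and its level is uncertain. The testis form, Slc25a31, had 7 reads in all 9 libraries together.

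Slc25a3 encodes the phosphate carrier and was the second carrier in level, at 14740.5 normalized counts per kb. It had 21226, 26052 and 24505 normalized counts at 2 m, 22602, 22093 and 26145 at 20 m, and 21035, 26166 and 24032 at 28 m. These values overlapped fully, with log2 fold changes against 2 m of -0.02 at 20 m (95% interval -0.25 to 0.21) and -0.01 at 28 m (95% interval -0.24 to 0.22).

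The order of the 5 carriers with the highest level per kb was Slc25a4, Slc25a3, Slc25a11 (5498), Slc25a12 (3037) and Slc25a20 (1694). These 5 kept this order among themselves in all 9 libraries, and the ranges of neighbours did not overlap. Below that, no pair of neighbours had separate ranges over the libraries. Slc25a25 came next at 952 normalized counts per kb, but Slc25a20 exceeded it in only 7 of 9 libraries, since in 2-m libraries 1 and 3 Slc25a25 was higher (1492 against 1436 and 1610.2 against 1500.1 per kb). Slc25a25 in turn exceeded Slc25a5 (943) in 6 of 9 libraries. The summed level of all 47 carriers was 94402 ± 8579 normalized counts per kb at 2 m, 87967 ± 2265 at 20 m and 85384 ± 9689 at 28 m (SD, n = 3), and the ranges of the 3 ages overlapped.

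**Figure D2:**
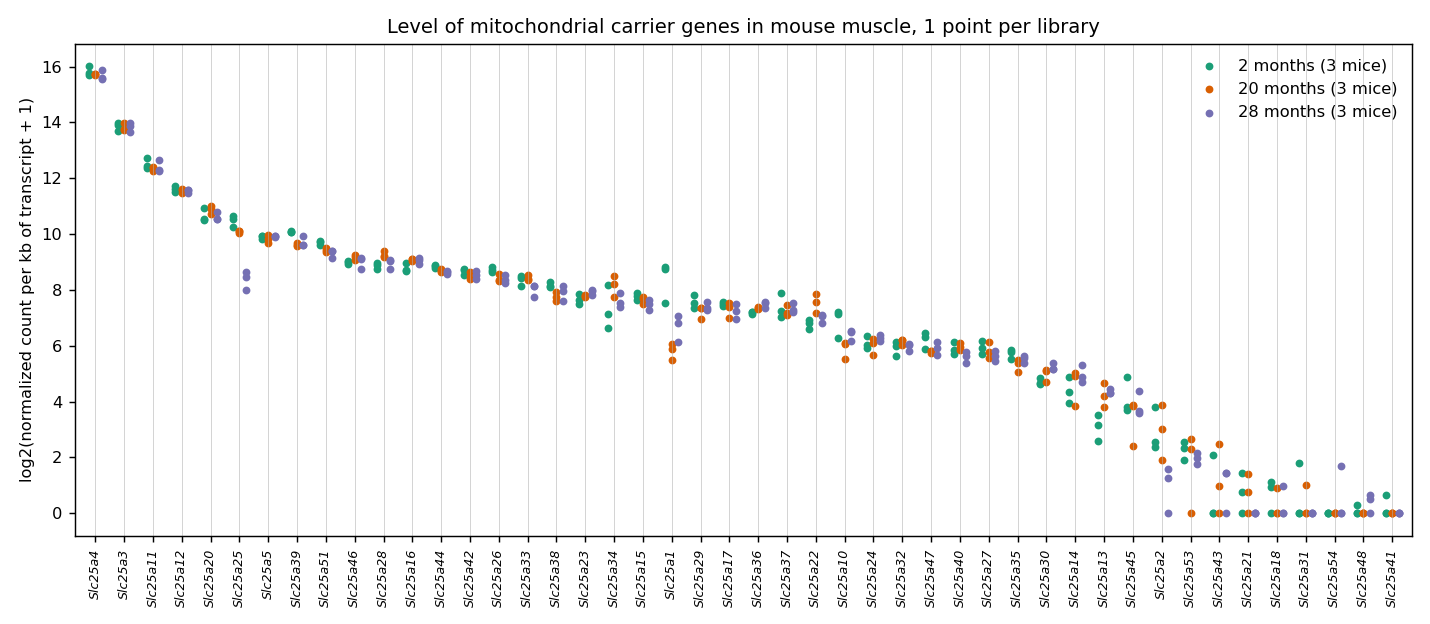
Level of each carrier gene shown as log2(normalized count per kb of the longest transcript + 1) on the y axis, ordered from the highest mean to the lowest, with 1 point for each library and colour for age (3 mice per age). Slc25a4 sits far above the rest, and the points of Slc25a25 and Slc25a1 separate by age while most genes show the 3 ages on top of each other.

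Slc25a25 was the only carrier called between 20 and 28 m, and it had the smallest p of the family at 28 m in both comparisons. It encodes one of the calcium-regulated ATP-Mg/phosphate carriers, which move adenine nucleotides into or out of the matrix in exchange for phosphate when cytosolic calcium rises and so set the size of the matrix nucleotide pool. It had 5265, 4323 and 5682 normalized counts in the 2-m muscles, 3878, 3665 and 3892 in the 20-m muscles, and 1402, 1233 and 906 in the 28-m muscles. Every 28-m library lay below every 20-m library, and every 20-m library below every 2-m library.

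The fall from 20 to 28 m was 3.28-fold, a log2 fold change of -1.71 ± 0.14 (SE, n = 3 per age, limma, Benjamini-Hochberg adjusted p = 0.000158). By p-value it ranked 2 of the 13178 genes in that comparison. Against 2 m the 28-m level was 4.35-fold lower (log2 fold change -2.12 ± 0.14, limma adjusted p = 2.76e-06), rank 9 of 13178. The difference between 2 and 20 m, -0.41 ± 0.14, missed the threshold (limma adjusted p = 0.0662), although the 2 groups did not overlap. It passed under DESeq2 on the recovered reads (adjusted p = 0.0245), with the 2 groups fitted alone (0.0298), with quantile normalization (0.0431) and without 2-m library 2 (0.0274), and it did not pass under edgeR (0.0588) or rescaling (0.37). Without the libraries numbered 3 the values at 28 m were -1.52 against 20 m (limma adjusted p = 0.00112) and -1.86 against 2 m (limma adjusted p = 9.04e-05). Between 20 and 28 m none of the 7 slow-fibre, 6 adipocyte or 7 tested neutrophil and marrow markers passed the test. Of all genes, only 0.212% passed as higher and 0.167% as lower in that comparison. The median log2 fold changes of the 3 marker lists were 0.05, 0.31 and -0.35, in the order given. Their part in the fall of Slc25a25 was not tested.

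The other ATP-Mg/phosphate carriers gave no such fall. Slc25a23 ranged from 608 to 856 normalized counts and Slc25a24 from 172 to 285, neither was called in any comparison, and at 28 m against 20 m their log2 fold changes were 0.14 (95% interval -0.09 to 0.37) and 0.28 (95% interval -0.11 to 0.67). The 28-m libraries of Slc25a23 lay just above its 20-m libraries, and those of Slc25a24 overlapped. Slc25a41, the form without calcium-binding domains, had 1 read in all libraries. Per kb, Slc25a25 made up 84.0% ± 2.95 (SD, n = 3) of the 4 genes' summed level at 2 m, 79.2% ± 0.825 at 20 m and 50.8% ± 6.01 at 28 m.

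**Figure D3:**
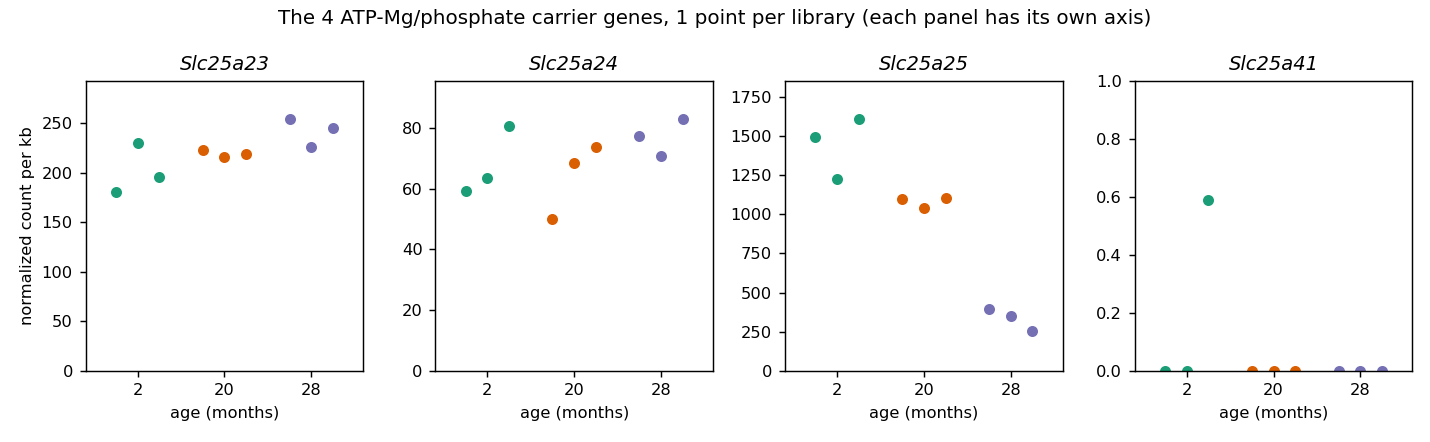
The 4 ATP-Mg/phosphate carrier genes in normalized counts per kb of the longest transcript (y axis, from 0, a separate scale for each gene) by age in months, 1 point per library. Slc25a25 drops at 28 months while Slc25a23 and Slc25a24 lie no lower there than at 20 months and Slc25a41 is at 0 in all but 1 library.

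Slc25a25 lies on the minus strand of chromosome 2 at chr2:32414487-32451470 (GRCm38), and 4.8% of its exon bases are overlapped by a gene on the other strand, Naif1. RefSeq lists 3 start sites for it in the table used, from which transcripts with different first exons begin. The RNA table counts reads per gene and cannot tell which start was used. The 250 bases before each start (RefSeq, GRCm38.p6, written 5′ to 3′ on the gene's strand) are shown because this was the only carrier called in both comparisons with 28 m, with the letters of 5 motifs in capitals wherever they occur on either strand. The motifs are the cAMP response element TGACGTCA, its core TGACG, which lies inside it, the GC box GGGCGG, the CCAAT box CCAAT and the E-box CACGTG. The 3 windows are chr2:32451471-32451720, chr2:32431152-32431401 and chr2:32424067-32424316.
Slc25a25 start 1: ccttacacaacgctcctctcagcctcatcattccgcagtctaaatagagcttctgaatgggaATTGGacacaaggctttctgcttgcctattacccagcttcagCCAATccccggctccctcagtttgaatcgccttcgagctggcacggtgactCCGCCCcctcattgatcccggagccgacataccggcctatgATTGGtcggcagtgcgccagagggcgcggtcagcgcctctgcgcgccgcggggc
Slc25a25 start 2: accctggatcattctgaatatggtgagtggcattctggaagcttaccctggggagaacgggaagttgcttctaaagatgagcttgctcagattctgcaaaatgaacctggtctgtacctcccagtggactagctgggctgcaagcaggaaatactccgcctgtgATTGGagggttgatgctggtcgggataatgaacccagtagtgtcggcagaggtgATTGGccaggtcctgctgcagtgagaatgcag
Slc25a25 start 3: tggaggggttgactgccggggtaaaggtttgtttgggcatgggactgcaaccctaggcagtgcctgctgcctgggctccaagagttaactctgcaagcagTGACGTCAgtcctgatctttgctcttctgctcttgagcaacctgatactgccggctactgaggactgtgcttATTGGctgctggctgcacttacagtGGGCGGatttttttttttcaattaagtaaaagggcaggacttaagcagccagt
The full element TGACGTCA stood before start 3, with its first base at position -150 from the start. It was found at 2 of the 46 listed starts of 36 carriers, the other being of Slc25a36, and at 1.98% of all 19848 listed starts of genes in the RNA table. The core TGACG stood at 20.8% of those starts and the CCAAT box at 35.2%. Start 1 held 19 CpGs in its window and starts 2 and 3 held 4 each. A match is a run of letters and not a measured binding site.

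Of the 4 carboxylate carriers, Slc25a1 and Slc25a10 were called lower at 20 m, Slc25a11 was not called and Slc25a21 was not tested. Slc25a1 encodes the citrate carrier, which exports citrate for fatty acid and sterol synthesis in the cytosol. It had 711, 305 and 746 normalized counts at 2 m, 72.9, 96.2 and 110.1 at 20 m, and 116, 188 and 219 at 28 m. All 6 libraries of the older ages lay below the lowest 2-m library, and the 3 2-m values differed by more than 2-fold among themselves. The 20-m level was 5.89-fold lower than at 2 m (log2 fold change -2.56 ± 0.33, SE, limma adjusted p = 0.000301) and the 28-m level 3.23-fold lower (-1.69 ± 0.33, limma adjusted p = 0.00505). The 28-m libraries lay above the 20-m libraries, by 0.87 ± 0.33 on the log2 scale, without passing the threshold (limma adjusted p = 0.359). Without the libraries numbered 3 the log2 fold changes against 2 m were -2.46 at 20 m (limma adjusted p = 0.00627) and -1.65 at 28 m (limma adjusted p = 0.0398).

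Acly, the ATP-citrate lyase that splits exported citrate in the cytosol, had 2184, 1241 and 2762 normalized counts at 2 m, 635, 636 and 725 at 20 m, and 865, 891 and 1161 at 28 m. It fell by 1.56 on the log2 scale at 20 m (SE 0.22, limma adjusted p = 0.000676) and by 1.02 at 28 m (limma adjusted p = 0.01). For both genes library 2 had the lowest of the 2-m values. The adipocyte marker sums given above were also highest at 2 m, and 4 of 6 of those markers fell at 20 m and 2 of 6 at 28 m against 2 m. Their part in the fall of Slc25a1 was not tested.

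The 250 bases before the only listed start of Slc25a1 (RefSeq, GRCm38.p6, minus strand, chr16:17928220-17928469) are shown for the carrier with the largest fall at 20 m, with the same 5 motifs in capitals.
Slc25a1: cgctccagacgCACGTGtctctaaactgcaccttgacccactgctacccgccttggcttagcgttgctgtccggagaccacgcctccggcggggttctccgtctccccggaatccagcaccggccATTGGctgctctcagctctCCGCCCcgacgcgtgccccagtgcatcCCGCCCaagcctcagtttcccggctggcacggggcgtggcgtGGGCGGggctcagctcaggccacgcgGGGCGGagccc
The window held 25 CpGs, 4 GC boxes, a CCAAT box on the other strand at position -125 and 1 E-box at position -239. The GC box stood at 32 of the 46 carrier starts and at 43.6% of all 19848 starts, and the E-box at 8 of the 46 and at 6.84% of all starts.

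Slc25a10 encodes the dicarboxylate carrier, which exchanges malate or succinate for phosphate. It had 296, 155 and 281 normalized counts at 2 m, 135, 91.1 and 138 at 20 m, and 142, 179.5 and 183 at 28 m. The 2-m and 20-m groups did not overlap, and the log2 fold change was -0.97 ± 0.26 (SE, limma adjusted p = 0.022). The call rested on single libraries, since it was lost when 2-m library 1, 2-m library 3 or 20-m library 2 was left out (limma adjusted p up to 0.0928). It was also lost without the libraries numbered 3 (0.106). At 28 m against 2 m the log2 fold change of -0.49 was not called (limma adjusted p = 0.237), but without 2-m library 2 it was -0.78 and passed (0.0348). Of its exon bases, 6.6% lie under a gene on the other strand. Slc25a11 encodes the oxoglutarate carrier of the malate-aspartate shuttle and had 8985, 11606 and 9564 normalized counts at 2 m, 8390, 8973 and 9322 at 20 m, and 8300.2, 10917 and 8610.1 at 28 m. These groups overlapped, and the log2 fold change was -0.17 at 20 m (95% interval -0.42 to 0.08) and -0.12 at 28 m (95% interval -0.37 to 0.13).

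Of the 4 carriers called higher in any comparison, Slc25a13 and Slc25a22 belong to the carriers of aspartate and glutamate, and Slc25a28 and Slc25a36, described further on, do not. Slc25a12 and Slc25a13 encode the calcium-regulated aspartate/glutamate carriers of the malate-aspartate shuttle, the first known from muscle, heart and brain and the second, citrin, best known from liver. Slc25a12 had 18355, 21319 and 19848 normalized counts at 2 m, 17963, 20008 and 19208 at 20 m, and 17965, 19356 and 19596 at 28 m. The ages overlapped, and the log2 fold changes against 2 m were -0.06 at both older ages (95% intervals -0.24 to 0.12).

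Slc25a13 was scarce, with 24.5, 15.9 and 32.5 normalized counts at 2 m, 54.2, 40.5 and 76.3 at 20 m, and 64.5, 59.4 and 58.5 at 28 m. Every library of the older ages lay above every 2-m library. The level was 2.31-fold higher at 20 m (log2 fold change 1.21 ± 0.35, SE, limma adjusted p = 0.0343) and 2.54-fold higher at 28 m (1.34 ± 0.35, limma adjusted p = 0.0239). Leaving out single libraries ended the call at 20 m in 4 cases (2-m libraries 1 and 2 and 20-m libraries 1 and 3, limma adjusted p up to 0.128) and at 28 m in 5 cases (2-m libraries 1 and 2 and each 28-m library, up to 0.0817). Per kb, Slc25a12 exceeded Slc25a13 443-fold ± 192 (SD, n = 3) at 2 m, 177-fold ± 60.7 at 20 m and 154-fold ± 14.9 at 28 m.

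Slc25a22 encodes a glutamate carrier. It had 267, 335 and 312 normalized counts at 2 m, 534, 398 and 648 at 20 m, and 315, 373 and 381 at 28 m. The 20-m libraries stood above all others, while the 2-m and 28-m libraries overlapped. It rose 1.70-fold at 20 m (log2 fold change 0.77 ± 0.17, SE, limma adjusted p = 0.0102), and the log2 difference of -0.54 between 20 and 28 m did not pass (limma adjusted p = 0.265). Without the libraries numbered 3 the rise was 0.62 (limma adjusted p = 0.0834). The second glutamate carrier gene, Slc25a18, had 4 reads in all libraries.

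Slc25a20, the carnitine/acylcarnitine carrier through which fatty acids reach beta-oxidation in the matrix, had 2561, 3494 and 2675 normalized counts at 2 m, 3434, 2990 and 3642 at 20 m, and 2621, 3154 and 2620 at 28 m. The groups overlapped in all 3 comparisons, and the log2 fold change was 0.21 at 20 m (95% interval -0.05 to 0.48) and -0.05 at 28 m (95% interval -0.32 to 0.22) against 2 m. The value at 20 m rested on 2-m library 2, the highest of its age, without which it was 0.35 and passed (limma adjusted p = 0.0468). None of the carriers of basic and neutral amino acids was called in any comparison: Slc25a15, an ornithine carrier, ranged from 528 to 819 normalized counts, Slc25a29, a carrier of basic amino acids, from 245 to 441, Slc25a38, a glycine carrier, from 343 to 562, and Slc25a44, a carrier of branched-chain amino acids, from 1365 to 1709. Of these 4, Slc25a38 had the smallest p at 20 m against 2 m (log2 fold change -0.43, limma adjusted p = 0.0686).

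Of the carriers of cofactors and nucleotides none was called at 20 m, and at 28 m against 2 m Slc25a36 rose and Slc25a51 fell. Slc25a51 brings NAD into mitochondria. It had 3767, 3824 and 3436 normalized counts at 2 m, 3071, 3246 and 2912 at 20 m, and 2955, 2996 and 2476 at 28 m. All older libraries lay below the 2-m libraries, and the log2 fold change was -0.39 ± 0.09 at 28 m (SE, limma adjusted p = 0.0126). At 20 m it was -0.26 ± 0.09 and not called (limma adjusted p = 0.0691), although it passed with quantile normalization (-0.34, 0.0175) and with the 2 groups fitted alone (0.0497). The call at 28 m was lost when 28-m library 3 was left out (-0.30, limma adjusted p = 0.0531).

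Slc25a36, a pyrimidine nucleotide carrier, had 771, 772 and 731 normalized counts at 2 m, 835, 871 and 849 at 20 m, and 955, 858 and 978 at 28 m. Its 2-m libraries lay below all others, and the log2 fold change at 28 m was 0.29 ± 0.09 (limma adjusted p = 0.0478). The call was lost in 5 of 6 cases of leaving out 1 library, namely without each 2-m library and without 28-m libraries 1 and 3 (limma adjusted p up to 0.148).

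No call was made for Slc25a16 and Slc25a42, linked to coenzyme A, Slc25a17 of peroxisomes, Slc25a26 for S-adenosylmethionine, Slc25a32 for folate or FAD, and Slc25a33, another pyrimidine nucleotide carrier. Slc25a26 at 28 m against 2 m (log2 fold change -0.36, limma adjusted p = 0.0535) and Slc25a16 at 20 m against 2 m (0.29, limma adjusted p = 0.0573) came closest among these.

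Of the mitoferrins, which carry iron for heme and iron-sulfur clusters, Slc25a28 (mitoferrin 2, the form of most tissues) had 731, 765 and 662 normalized counts at 2 m, 919, 1043 and 891 at 20 m, and 801, 819 and 651 at 28 m. The 20-m libraries lay above all others. The log2 fold change at 20 m against 2 m was 0.40 ± 0.11 (SE, limma adjusted p = 0.0314), and at 28 m against 20 m it was -0.33 (limma adjusted p = 0.313). The call at 20 m was lost in 4 of 6 cases of leaving out 1 library, namely without 2-m library 1 or 3 or 20-m library 1 or 2 (limma adjusted p up to 0.126). Slc25a37 (mitoferrin 1, the form of red cell precursors) was highest in 2-m library 1, at 985 normalized counts, and ranged from 541 to 761 in the other 8. In that library the red blood cell markers summed to 1830 normalized counts, against 110.5 to 413 in the others, and their part in its Slc25a37 value was not tested.

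Slc25a39 imports glutathione. It had 1796, 1875 and 1800.5 normalized counts at 2 m, 1287, 1392 and 1317 at 20 m, and 1299.9, 1628 and 1325 at 28 m. The 2-m libraries lay within a narrow band above all older ones. It fell at 20 m (log2 fold change -0.45 ± 0.10, SE, limma adjusted p = 0.00705) and at 28 m (-0.37 ± 0.10, limma adjusted p = 0.0219) against 2 m. The call at 28 m was lost in 4 of 6 cases of leaving out 1 library, namely without 2-m library 1 or 2 or 28-m library 1 or 3 (up to 0.0961), and without the libraries numbered 3 neither passed (0.0518 at 20 m and 0.16 at 28 m). Its relative Slc25a40 ranged from 114 to 192 and was not called.

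**Figure D4:**
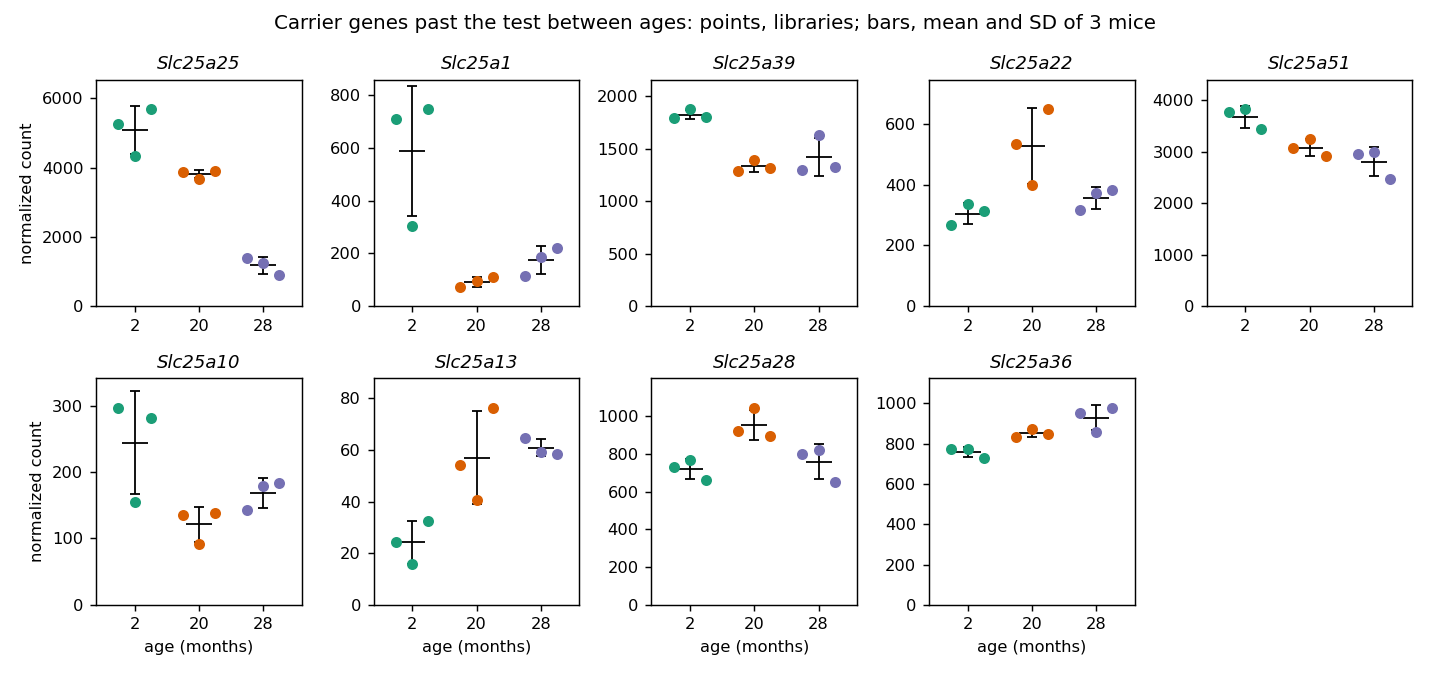
Normalized counts (y axis, from 0, separate scale for each gene) by age in months for 9 carriers that passed the test in at least 1 comparison without overlap of the groups; points are libraries and bars the mean and SD of 3 mice. Slc25a25 steps down at 28 months, Slc25a1 at 20 months, Slc25a13 is higher at both older ages, and Slc25a22 and Slc25a28 are highest at 20 months.

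The carriers related to uncoupling proteins, Slc25a14, Slc25a27 and Slc25a30, ranged from 24.3 to 70.2, 123 to 204 and 84.7 to 146 normalized counts and were not called. The remaining tested genes, Slc25a34, Slc25a35, Slc25a45, Slc25a46 of the outer membrane, Slc25a47 and Slc25a53, were not called either. Of these Slc25a34 ranged widely, from 265 to 952 normalized counts, and its log2 fold change of 0.83 ± 0.31 (SE) at 20 m did not pass (limma adjusted p = 0.0847). For Slc25a35, 31.3% of the exon bases lie under a gene on the other strand, so its value is uncertain, since the strand setting of the counting was not given in the sources used here. The same holds for smaller shares of Slc25a33 (14.9%) and Slc25a11 (8.9%).

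The filter on low values left out 8 carriers. Slc25a2, an ornithine carrier, lay just outside it with a mean of 7.43 normalized counts and 55 reads in all, and Slc25a53 just inside with 10.5. The other 7 (Slc25a18, Slc25a21, Slc25a31, Slc25a41, Slc25a43, Slc25a48 and Slc25a54) had means of at most 1.51 and between 1 and 12 reads in all, where a change with age was not detectable at this depth. Slc25a2 was read in 8 of 9 libraries, at 5.78 to 17.6 normalized counts at 2 m, 3.74 to 18.6 at 20 m and 0 to 2.76 at 28 m.

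The same test was read for 4 lists of other mitochondrial genes, and their counts are to be read against the shares of all genes called, 9.42% higher and 7.13% lower at 20 m and 7.53% and 6.24% at 28 m against 2 m. Of 14 further transport proteins of the mitochondrial membranes, such as the pyruvate carrier, sideroflexins and uncoupling proteins, 1 rose and 1 fell at 20 m against 2 m (median log2 fold change -0.23, all genes -0.02), 2 fell at 28 m (median -0.24, all genes -0.01), and 1 fell between 20 and 28 m. The gene that rose and then fell was Ucp3, the uncoupling protein of skeletal muscle and a member of the SLC25 family that the symbol rule did not take in. It had 1339.6, 1480.2 and 1221 normalized counts at 2 m, 5688, 3013 and 6338 at 20 m, and 1178, 2112 and 1304 at 28 m. The 20-m libraries stood above all others, with log2 fold changes of 1.83 ± 0.25 (SE, limma adjusted p = 0.000496) at 20 m against 2 m and -1.69 ± 0.25 (limma adjusted p = 0.0114) at 28 m against 20 m.

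Of 15 porins and protein import genes, Tomm20 rose and Timm44 fell at 20 m, and Timm44 fell at 28 m against 2 m, with list medians of -0.10 and -0.12. Of 17 citric acid cycle genes, Ogdh rose at 20 m and no other was called in any comparison, with medians of -0.08 at 20 m and -0.01 at 28 m. Of 19 enzymes that use the carried substrates, Pank1 rose and Acly fell at 20 m, and Acly and Glud1 fell at 28 m, with medians of 0.08 and 0.02. None of these 51 genes was called between 20 and 28 m.

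MBD-seq signal, which rises with the number of methylated CpGs in a fragment, was read at the promoters of the 36 carriers with a listed start, as the mean normalized count of the 500-bp bins within 1000 bp. With 1 pool and 1 column per age there was no test. In muscle the median over the 36 promoters was 9.64 at 2 m, 7.999 at 20 m and 10.3 at 28 m, where that of 16352 genes of the RNA table was 8.37, 8.42 and 10.7. In T cells it was 14.7, 16.9 and 19.4, against 9.95, 11.7 and 12.4. The muscle columns summed to 123104731, 113880888 and 90435044 and the T-cell columns to 199219943, 243923349 and 249494137, so levels depend on the scaling. After rescaling to the same sum, the medians of the carriers at 2, 20 and 28 m were 13.3, 11.9 and 19.4 in muscle and 12.5, 11.8 and 13.2 in T cells. Those of all genes were 11.6, 12.6 and 20.1 in muscle and 8.49, 8.14 and 8.47 in T cells. On that scale the carriers' T-cell medians lay below their muscle medians at each age and showed no steady rise. With bins within 500 bp and no rescaling, the muscle medians of the carriers were 3.64, 3.79 and 7.22, and those of all genes 4.55, 4.77 and 8.29.

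The 5 carriers with the highest mean promoter signal over the muscle pools were Slc25a31, Slc25a54, Slc25a5, Slc25a43 and Slc25a21, and all of them but Slc25a5 had at most 12 reads in the 9 RNA libraries together. Other carriers with as few reads had less signal, Slc25a18 with 21.3, 18.9 and 18.9 at 2, 20 and 28 m and Slc25a48 with 6.55, 4.55 and 15.3. Slc25a31 had the highest value at each age, 91.9, 65.8 and 41.8 in muscle and 93.4, 99.1 and 113 in T cells. Slc25a54 had 48.2, 39.1 and 26.8 in muscle, and the X-linked and well expressed Slc25a5 had 48.4, 34.2 and 21.3. At the abundant Slc25a4 the signal was 4.19, 5.39 and 8.92 in muscle and 31.3, 23.6 and 34.9 in T cells at the same ages. The T-cell value was higher at every age on this scale, without rescaling.

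At the 3 starts of Slc25a25 the muscle signal was 9.10, 9.43 and 8.80 at start 1, 9.83, 6.74 and 12.5 at start 2, and 3.64, 4.04 and 4.72 at start 3, for 2, 20 and 28 m. The promoter of Slc25a1 had 9.46, 13.0 and 9.82 in muscle and 17.5, 23.9 and 35.95 in T cells, and that of Slc25a13 had 9.83, 9.60 and 14.1 in muscle. The promoters of Slc25a1 and Slc25a13 and start 1 of Slc25a25 lay above the muscle median of all genes at 2 m and 20 m, and start 3 of Slc25a25 below it at each age. The table shows no spread between pools or captures.

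**Figure D5:**
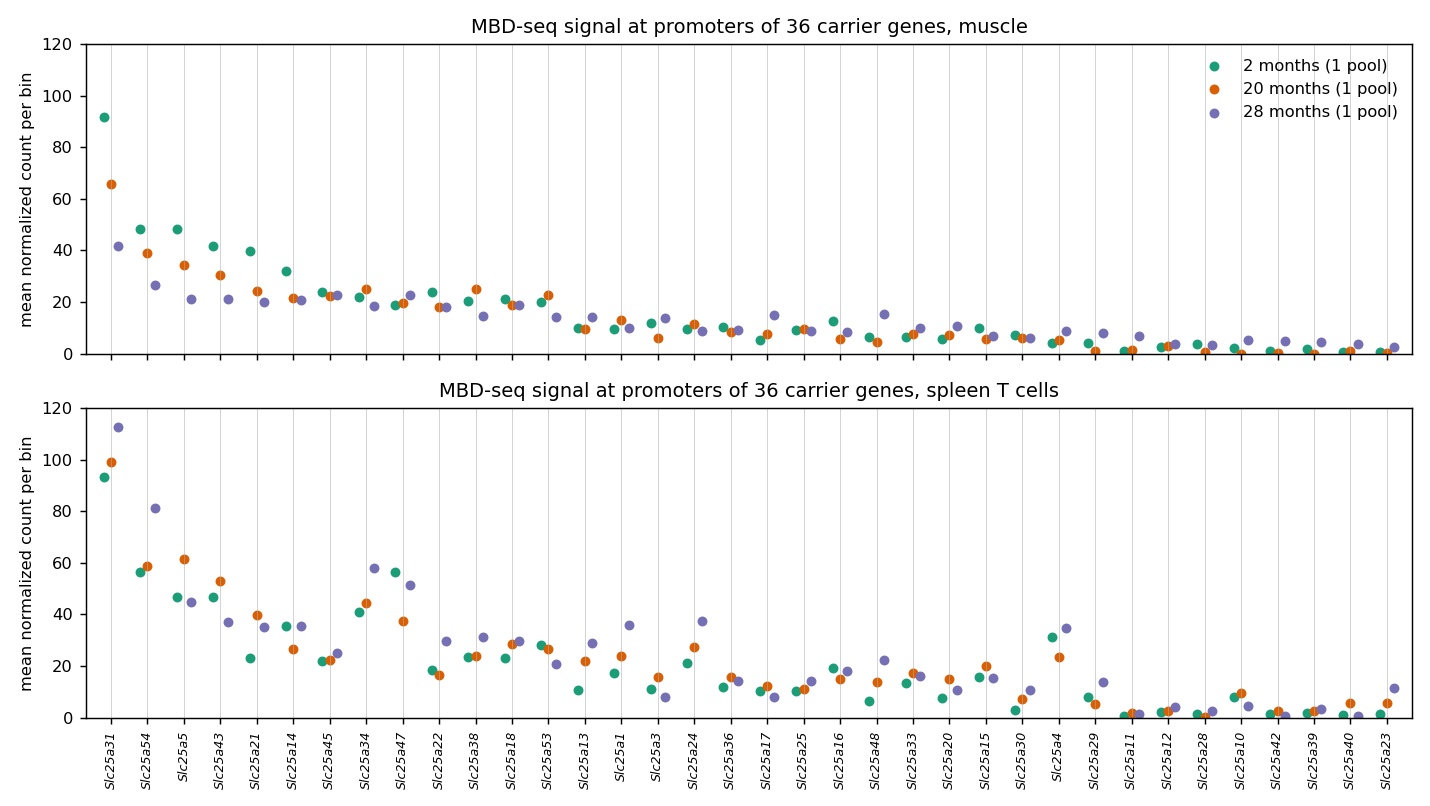
MBD-seq signal at the promoters of 36 carrier genes (first listed start, mean normalized count per 500-bp bin within 1000 bp, y axis from 0) in muscle and spleen T cells, 1 pool of 3 mice per age, ordered by the muscle mean. Slc25a31 is highest in both tissues, and Slc25a4 sits low in muscle and higher in T cells.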

How the data were processed

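RNA-seq was made from the hindlimb muscle of each of 9 female mice and MBD-seq from DNA pooled by age. The authors trimmed reads with Trim Galore, aligned RNA-seq reads to mm10 with Hisat2 and MBD-seq reads with Bowtie2, counted per refSeq gene with htseq-count (intersection-strict) or per 500-bp bin, and divided by DESeq2 size factors; GEO's processing notes also name TopHat. The strand setting was not given in the sources used here. The deposited values are therefore a normalized signal, and 100% of the nonzero RNA values were whole reads within 0.01 read. Another 5 rows that name no gene were left out (37.9 to 47.7% of reads).

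One limma model (version 3.58.1, trend, R 4.3.3) with age as its only term took in all 9 libraries on log2(value + 1), for the 13178 genes with a mean of at least 10, with Benjamini-Hochberg adjustment over them. Single genes were also compared by exact two-sided permutation tests. Replicate numbers were not treated as pairs, because deviations from the age means correlated above 0.1 for number 3 (0.109, 0.150 and 0.161) and not for numbers 1 and 2. The fit was tested on simulated data.

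Values in every library are given for carriers called in at least 1 comparison without overlap of the groups and for the 5 with the highest level per kb. The carriers, the lists of other genes and the tests were chosen with earlier results of these data known. Lengths are of the longest GENCODE vM21 transcript, and all 47 symbols matched RefSeq GRCm38.p6, of which 36 had listed starts. The muscle MBD-seq columns do not name the round of capture, so none was assigned. Other settings tried were a pseudocount of 0.1 or 5, testing all genes or those with a mean of at least 50, libraries rescaled to an equal sum, quantile normalization, a term for the replicate number, a fit of the 2 groups alone, count tests on the recovered reads (edgeR 4.0.16; DESeq2 1.42.0), leaving out each library, and promoter bins within 500 bp. Leaving out all libraries numbered 3 was chosen after seeing the data. The values of a few genes of the lists are not reported here or drawn in the figures, but they count in the totals and medians.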

Additional observations from a re-analysis of the deposited data

How the results depend on the processing

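The calls of Slc25a25 at 28 months (against 2 and 20 months) and of Slc25a1 at 20 and 28 months against 2 months held in all 17 alternatives each was fitted under. For Slc25a25 the log2 fold change ranged from -2.26 to -1.86 against 2 months (highest limma adjusted p 0.000118) and from -1.85 to -1.52 against 20 months (0.00404), and for Slc25a1 from -2.98 to -2.33 at 20 months (0.00627) and from -2.11 to -1.42 at 28 months (0.0398). Rescaling to the same sum, where 354 genes in all were higher and 232 lower at 20 months in place of 1242 and 939, gave 0 carriers higher and 1 lower at 20 months, and 0 higher and 2 lower at 28 months. Without the libraries numbered 3 there were 0 higher and 1 lower at 20 months and 0 higher and 3 lower at 28 months. Of all genes, 683 were higher and 416 lower at 20 months in that setting, and 400 and 312 at 28 months. At 28 months against 2 months, no filter gave 0 higher, a mean of at least 50 gave 1 higher, and quantile normalization 1 higher. Quantile normalization gave 5 lower at 20 months. Only the 2 groups compared gave 5 lower at 20 months and 1 higher and 3 lower at 28 months. The cause was not tested. Leaving out each library in turn gave 1 to 4 higher and 2 to 4 lower at 20 months, 0 to 2 higher and 2 to 6 lower at 28 months against 2 months, and 0 to 0 higher and 1 to 1 lower at 28 against 20 months. edgeR and DESeq2 on the recovered reads gave counts within 1 of those reported.

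With the replicate number as a block, 4 carriers were higher and 5 lower at 20 months, 2 higher and 7 lower at 28 months against 2 months, and 0 higher and 1 lower at 28 against 20 months. The counts of all genes rose too, to 1696 higher and 1304 lower at 20 months from 1242 and 939. They rose to 1368 and 1161 at 28 months against 2 months from 992 and 822, and to 64 and 74 at 28 against 20 months. The block added Slc25a25 (-0.41, limma adjusted p = 0.0432) and Slc25a51 (-0.26, limma adjusted p = 0.0155) to those lower at 20 months. The numbers were not shown to mark pairs, so this fit is given only here.

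Directions changed only for differences that were not called. Leaving out single libraries moved Slc25a3 between -0.102 and 0.0461 at 20 against 2 months, between -0.0954 and 0.0729 at 28 against 2 months and between -0.0667 and 0.0908 at 28 against 20 months. It moved Slc25a20 between -0.137 and 0.0908 at 28 against 2 months. At 28 against 20 months it moved Slc25a4 between -0.159 and 0.0125, Slc25a11 between -0.072 and 0.126, Slc25a12 between -0.0483 and 0.0326, Slc25a13 between -0.0806 and 0.368 and Slc25a39 between -0.0206 and 0.142. Rescaling turned Slc25a3 at 28 against 2 months (0.0277) and Slc25a12 at 28 against 20 months (0.0174), quantile normalization the latter (0.0702), and leaving out the libraries numbered 3 Slc25a4 at 28 against 20 months (0.0163).

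With 3 mice per age, simulated log2 changes of 1 were recovered in 66% of genes and of 0.5 in 10% for 20 against 2 months. The simulation gave every gene the same dispersion (spread of counts between libraries) and changed 100 genes at each size. The data differ in both, so these shares need not hold for the carriers. Small changes of single carriers can still be missed with 3 mice per age. Reads on genes ranged from 20203833 to 71115244 per library, and MBD-seq had no biological replicate, with the repeat capture of muscle not separable in the columns used.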
